A study of Homo sapiens with 10 samples.

Results

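Desmosomes are the spot-like junctions that tie the keratin filaments of neighbouring epithelial cells together. In a desmosome the cadherins of the desmoglein and desmocollin families reach across the gap between cells, the armadillo proteins plakoglobin and plakophilin bind the cadherin tails, and the plakin desmoplakin links this plaque to the filaments. PERP, a tetraspan membrane protein known as a target of p53 and p63, is needed for stable desmosomes in stratified epithelia. The set described here holds 10 genes, chosen by symbol: the desmogleins DSG2 and DSG3, the desmocollins DSC2 and DSC3, plakoglobin (JUP), the plakophilins PKP1, PKP2 and PKP3, desmoplakin (DSP) and PERP. All 10 were found, among the 26256 genes in the count table of untreated cells and the 55736 rows in that of the Nutlin-3a experiment.

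RNA-seq was available for 4 groups. MCF10A is an immortalized, non-transformed human mammary epithelial line, and 2 libraries came from it. Another 2 libraries came from G12V cells, which are MCF10A cells transduced with a lentiviral vector for G12V HRas together with a GFP vector and selected with hygromycin. The paper reports that these cells at first stopped growing and resumed growth some weeks later. No group with an empty vector was among the libraries, so the oncogene, transduction, selection and regrowth cannot be told apart. In the other experiment MCF10A cells without the oncogene received 10 µM Nutlin-3a, which blocks the binding of MDM2 to p53, or the vehicle DMSO, for 4 h, with 3 libraries each. The methods of the study call its replicates biological, and the labels do not say which cultures the libraries came from, so that p-values measure the spread between these libraries.

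Total counts per library ran from 21538593 to 23683975 in the untreated table and from 15453226 to 17378734 in the Nutlin-3a table. HRAS, which checks the labels, was higher in G12V cells by 3.05 on the log2 scale, and CDKN1A and MDM2, targets of p53, were higher after Nutlin-3a by 2.16 and 2.54. Of 8 tested markers of mammary epithelium 6 were differentially expressed (DE: a log2 fold change beyond 0.5 in either direction, with adjusted p below 0.05) and lower in G12V cells, and the summed level of that list was 6856 to 8415 CPM (counts scaled by library size) in MCF10A and 1363 to 1662 CPM in G12V libraries. Of 8 fibroblast markers 4 had enough counts to test and 1 was DE, LUM, with 1 and 0 counts in MCF10A and 28 and 27 in G12V cells. The fibroblast list summed to 37.5 to 64.9 CPM in MCF10A and 53.4 to 60.1 CPM in G12V libraries. Its highest member was DCN, with 557 and 1324 counts in MCF10A and 1135 and 1190 in G12V libraries. COL1A1 had 254 and 133 counts against 76 and 104, and neither gene was DE. COL1A2, COL3A1 and THY1 had at most 1 count in any of these libraries. Of 7 blood and endothelial markers 3 were tested and CD68 was DE and higher, the list summing to 15.7 to 17 CPM and 42.6 to 77.4 CPM, with PTPRC and CD3E at no more than 1 count in each library. The part of other cells in the results was not tested.

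Promoter sequences are given for the genes on which the comparisons turn: DSG2 and DSG3, neighbouring desmogleins at opposite ends of the range of changes, DSC3, and PERP. Each line holds the 250 bases upstream of the annotated start, 5′ to 3′ on the strand of the gene, from RefSeq on GRCh38.p14. They lie at chr18:31497927-31498176, plus strand for DSG2, chr18:31447491-31447740, plus strand for DSG3, chr18:31042743-31042992, minus strand for DSC3 and chr6:138107420-138107669, minus strand for PERP. Capitals mark matches, on either strand, to CAGGTG (the E-box read by repressors of the ZEB and Snail families), TGAGTCA (the AP-1 site) or the decamer consensus of a p53 half-site.
DSG2: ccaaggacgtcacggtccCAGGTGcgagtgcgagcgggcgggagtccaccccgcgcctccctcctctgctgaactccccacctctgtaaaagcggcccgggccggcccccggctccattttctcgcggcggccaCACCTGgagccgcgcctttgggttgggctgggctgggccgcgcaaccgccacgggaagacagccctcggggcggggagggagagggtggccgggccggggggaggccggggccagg
DSG3: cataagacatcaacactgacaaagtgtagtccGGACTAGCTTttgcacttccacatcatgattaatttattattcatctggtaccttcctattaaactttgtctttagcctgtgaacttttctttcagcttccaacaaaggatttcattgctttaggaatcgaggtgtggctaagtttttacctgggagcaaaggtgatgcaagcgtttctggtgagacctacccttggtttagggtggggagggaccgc
DSC3: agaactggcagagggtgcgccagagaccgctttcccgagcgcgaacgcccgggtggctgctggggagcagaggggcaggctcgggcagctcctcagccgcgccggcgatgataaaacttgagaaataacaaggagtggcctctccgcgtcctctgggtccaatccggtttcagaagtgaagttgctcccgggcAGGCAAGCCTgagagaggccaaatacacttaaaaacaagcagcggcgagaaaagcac
PERP: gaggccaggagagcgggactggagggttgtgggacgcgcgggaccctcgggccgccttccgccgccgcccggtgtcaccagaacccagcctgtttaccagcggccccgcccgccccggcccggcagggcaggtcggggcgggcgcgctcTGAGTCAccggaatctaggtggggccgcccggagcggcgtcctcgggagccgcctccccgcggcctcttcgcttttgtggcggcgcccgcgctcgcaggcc

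RefSeq windows from 250 bases before to 50 bases after a start were present for 8 of the 10 genes, with 10 windows in all, and none for PKP2 and PKP3. The DSG2 window had 76.7% G and C and 36 CpG, whereas the DSG3 window had 44% and 6, against medians of 58.7% and 14 over 35116 windows of the same length. The DSC3 window had 63.3% and 25 CpG, and that of PERP 77.0% and 43. CAGGTG, searched on both strands, was present in 4 of the 10 windows, those of DSG2 (first bases at -232 and -116 from the start), DSP, JUP and DSC2, and in 20.6% of all windows. TGAGTCA was present at -101 in PERP, in 1 of the 10 windows and 4.95% of all. The p53 half-site decamer was matched at -218 in DSG3 and -57 in DSC3, in 2 of the 10 windows and 6.63% of all. TATAAA was in none of the 10 and 11.5% of all. GGGCGG, the GC box, was in 7 of the 10 windows and 45.0% of all, and is not marked. In the printed sequences no marked match overlapped another. These matches describe the letters of the windows.

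To ask how the HRas oncogene relates to the desmosome at the RNA level, G12V cells were compared with MCF10A cells. Most of the desmosome genes fell in G12V cells. Of the 9 genes with enough counts to test, 8 were DE, each of them lower, and the remaining one, DSG2, missed the threshold. DSG3, DSC3 and DSC2 fell the furthest, to 1.03%, 1.10% and 3.07% of their mean CPM in MCF10A cells, while DSP, JUP, PERP, PKP2 and PKP3 kept between 12.8% and 28.8%. Over all 14376 genes tested, 11.0% were DE and 5.95% were DE and lower. Values of the groups did not overlap, with G12V cells lower, for 9 of the 9 desmosome genes and for 27.4% of all tested genes. The median log2 fold change was -2.59 over the desmosome genes and -0.0011 over all genes tested. Summed over the set, the CPM were 3071 and 4535 in the MCF10A libraries and 685 and 821 in the G12V libraries. In such bulk RNA, fewer cells with a transcript and less of it per cell cannot be told apart.

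**Figure D1:**
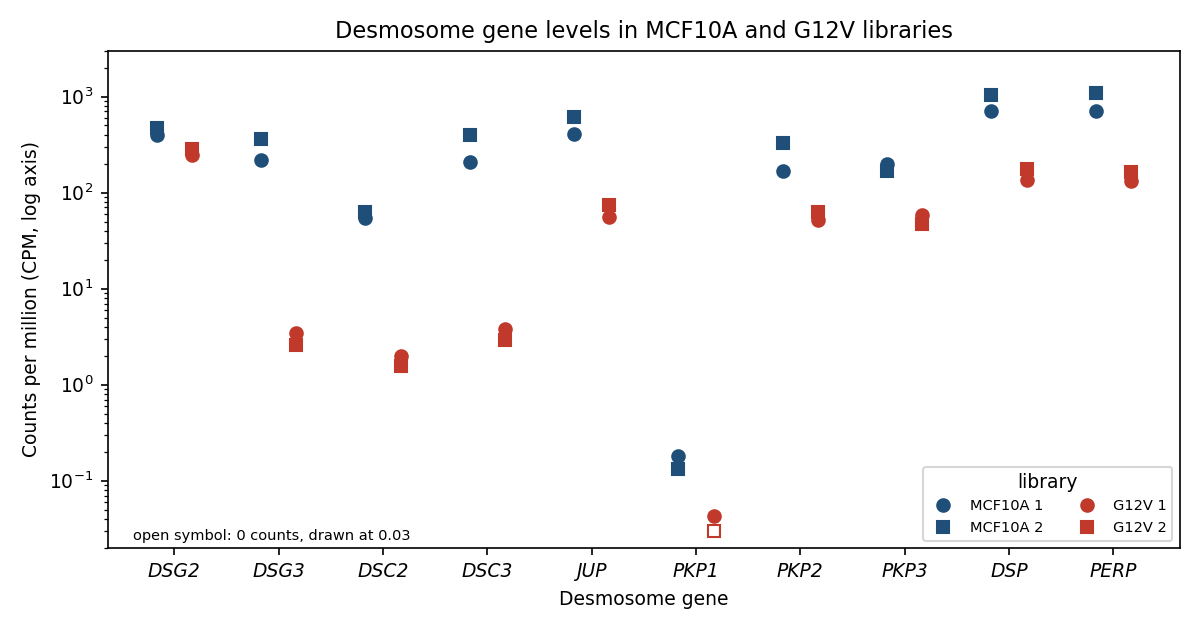
Level of each desmosome gene in the 2 MCF10A (blue) and 2 G12V (red) libraries, in CPM on a log axis, 1 symbol per library. DSG2 keeps the smallest gap between the groups, and DSG3, DSC2 and DSC3 sit below 4 CPM in both G12V libraries.

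The 2 desmogleins lay at opposite ends of the set. DSG3, the desmoglein of basal and stratified epithelium, lies on chromosome 18 from 29027732 to 29058665 in hg19 and had 220 and 362 CPM in the MCF10A libraries and 3.42 and 2.59 CPM in the G12V libraries. It fell by 6.59 on the log2 scale (adjusted p = 0.00079, SE 0.37, by the quasi-likelihood test of edgeR). DSG2, the desmoglein found in nearly all epithelia, lies beside it from 29078027 to 29128814 and had 400.2 and 472 CPM in MCF10A and 244 and 287 CPM in G12V libraries. Both G12V values of DSG2 were below both MCF10A values, but its log2 fold change of -0.72 (SE 0.21, 95% interval -1.24 to -0.19) had an adjusted p of 0.093 in that test of edgeR. It passed with DESeq2 (adjusted p = 0.030), with edgeR's exact test (adjusted p = 0.039) and in an edgeR fit with replicate numbers as blocks (adjusted p = 0.0016). That block does not rest on a known pairing. Under the other scalings and filters DSG2 did not pass, with adjusted p from 0.075 to 0.116 in the quasi-likelihood test of edgeR.

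Both desmocollins fell. DSC3, on chromosome 18 from 28569331 to 28622781, had 207 and 401 CPM in the MCF10A libraries and 3.76 and 2.94 CPM in the G12V libraries. The groups were far apart, and the gene fell by 6.50 on the log2 scale (adjusted p = 0.0013, SE 0.43, edgeR). DSC2, the more widely expressed desmocollin, from 28645940 to 28682395, had 53.8 and 62.6 CPM in MCF10A and 2.01 and 1.56 CPM in G12V libraries, where it rested on 47 and 35 counts. Its log2 fold change was -5.02 (adjusted p = 0.00079, SE 0.27, edgeR). The G12V values of these desmocollins and of DSG3 were thus in the range of 1.56 to 3.76 CPM.

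Among the armadillo proteins of the plaque, JUP had the largest fitted change. Plakoglobin also binds the classical cadherins of adherens junctions, and its gene lies on chromosome 17 from 39910859 to 39942964. JUP had 404 and 609 CPM in the MCF10A libraries and 55.1 and 74.5 CPM in the G12V libraries, a log2 fold change of -2.97 (adjusted p = 0.0042, SE 0.30, edgeR). PKP2, which clusters desmoplakin at the membrane and is encoded on chromosome 12 from 32943680 to 33049780, had 167 and 328 CPM against 52.0 and 62.6 CPM, and fell by 2.11 on the log2 scale (adjusted p = 0.017, SE 0.35, edgeR). The 2 MCF10A values of PKP2 differed by 0.97 on the log2 scale, the widest replicate difference among the tested desmosome genes, and both were above the G12V values. PKP3, on chromosome 11 from 392599 to 404908, had 199.98 and 167 CPM against 58.6 and 47.4 CPM, a log2 fold change of -1.79 (adjusted p = 0.0061, SE 0.21, edgeR). PKP1, the plakophilin of suprabasal epidermis, on chromosome 1 from 201252580 to 201302121, had 4 and 3 counts in MCF10A and 1 and 0 counts in G12V libraries, and was not tested. A count of 0 allows up to 3 counts, or 0.134 CPM in that library, by counting error alone.

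DSP, the plakin that anchors keratin filaments, lies on chromosome 6 from 7541870 to 7586946. It had 715 and 1047 CPM in the MCF10A libraries and 134 and 177 CPM in the G12V libraries. PERP, on the same chromosome from 138409642 to 138428660, had 703 and 1086 CPM against 132 and 165 CPM. Both genes were well separated between the groups, with log2 fold changes of -2.50 (adjusted p = 0.0065, SE 0.30) for DSP and -2.59 (adjusted p = 0.0062, SE 0.30) for PERP with edgeR.

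The MCF10A libraries differed from each other in a common direction. MCF10A replicate 2 was above replicate 1 in 8 of the 9 tested desmosome genes, with a median difference of 0.59 on the log2 scale, where the median over all tested genes was -0.0060. PKP3 was the exception, at -0.26. Without MCF10A replicate 1 no gene of the whole table was DE, and for the 8 desmosome genes the adjusted p rose to between 0.0502 and 0.108 (edgeR) while the log2 fold changes ran from -6.88 for DSG3 to -1.63 for PKP3. Without any other single library the 8 genes were DE. Each such fit had 1 library in a group, which was assumed to vary like the pair in the other group.

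**Figure D2:**
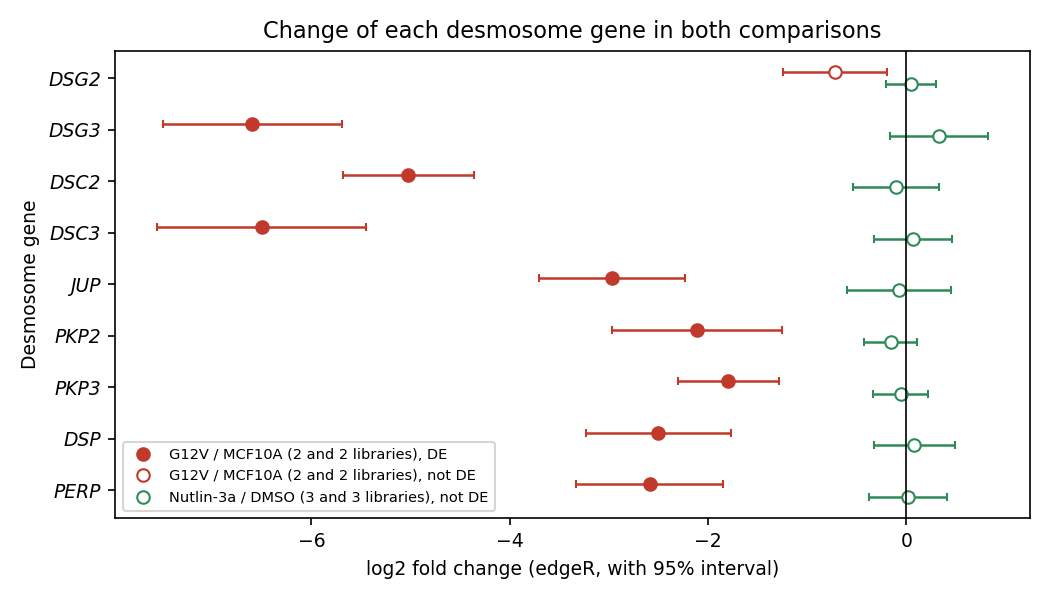
Log2 fold change with its 95% interval from edgeR for the 9 tested desmosome genes, G12V against MCF10A in red and Nutlin-3a against DMSO in green, with filled symbols for DE genes. The red intervals lie below 0 for each gene, and the green intervals include 0 for each gene.

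The order of the desmosome genes by level, in CPM per kb of transcript, differed between the cells. Lengths were those of GENCODE canonical transcripts, 12.3 kb for DSC2 and 7.58 kb for DSC3. The transcripts behind the counts are not known, so places in the order depend on these lengths. In MCF10A cells PERP was the highest (213 ± 64.5, SD, n = 2), followed by JUP (144 ± 41.3), DSP (90.9 ± 24.2), DSG2 (76.5 ± 8.90), PKP3 (65.2 ± 8.18), PKP2 (58.5 ± 26.9), DSG3 (52.1 ± 17.9), DSC3 (40.1 ± 18.1), DSC2 (4.72 ± 0.50) and PKP1. The values of the libraries overlapped between neighbours in this order except between JUP and DSP, DSC3 and DSC2, and DSC2 and PKP1. In G12V cells DSG2 came first (46.6 ± 5.37, SD, n = 2), then PERP (35.5 ± 5.55) and, with overlapping values, PKP3 (18.8 ± 2.81), JUP (18.5 ± 3.92), DSP (16.0 ± 3.14) and PKP2 (13.6 ± 1.77). DSG3 (0.54 ± 0.11), DSC3 (0.44 ± 0.08) and DSC2 (0.14 ± 0.03) followed far below, at under 1 CPM per kb.

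Ratios of counts within a library, which do not depend on the scaling of libraries, showed how unequal the changes were. DSG2 had 1.82 and 1.30 counts for each count of DSG3 in the MCF10A libraries and 71.3 and 111 in the G12V libraries, a difference of 5.85 on the log2 scale. The log2 ratio of DSC2 to DSC3 was -2.31 ± 0.52 (SD, n = 2) in MCF10A and -0.91 ± 0.007 in G12V cells. In the G12V libraries this ratio rested on 47 against 88 counts and 35 against 66, so counting error exceeds that small SD. Per kb of transcript DSC3 made up 86.2% to 91.3% of this pair in MCF10A and 75.3% to 75.4% in G12V libraries. Such shares depend on the transcript lengths used. DSP to JUP shifted by 0.46, from 0.80 ± 0.029 to 1.27 ± 0.023, and PKP2 to PKP3 overlapped between the groups. With 2 against 2 libraries the two-sided exact permutation test gave the smallest p it can reach, 0.333, for each of the 3 ratios that did not overlap (0.444 adjusted over 4 ratios). Per kb of transcript, DSG2 made up 49.7% and 40.3% of the summed level of these 4 desmosomal cadherins in the MCF10A libraries and 97.1% and 98.1% in the G12V libraries, while the sum went from 141 and 206 to 44.1 and 51.4 CPM per kb.

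**Figure D3:**
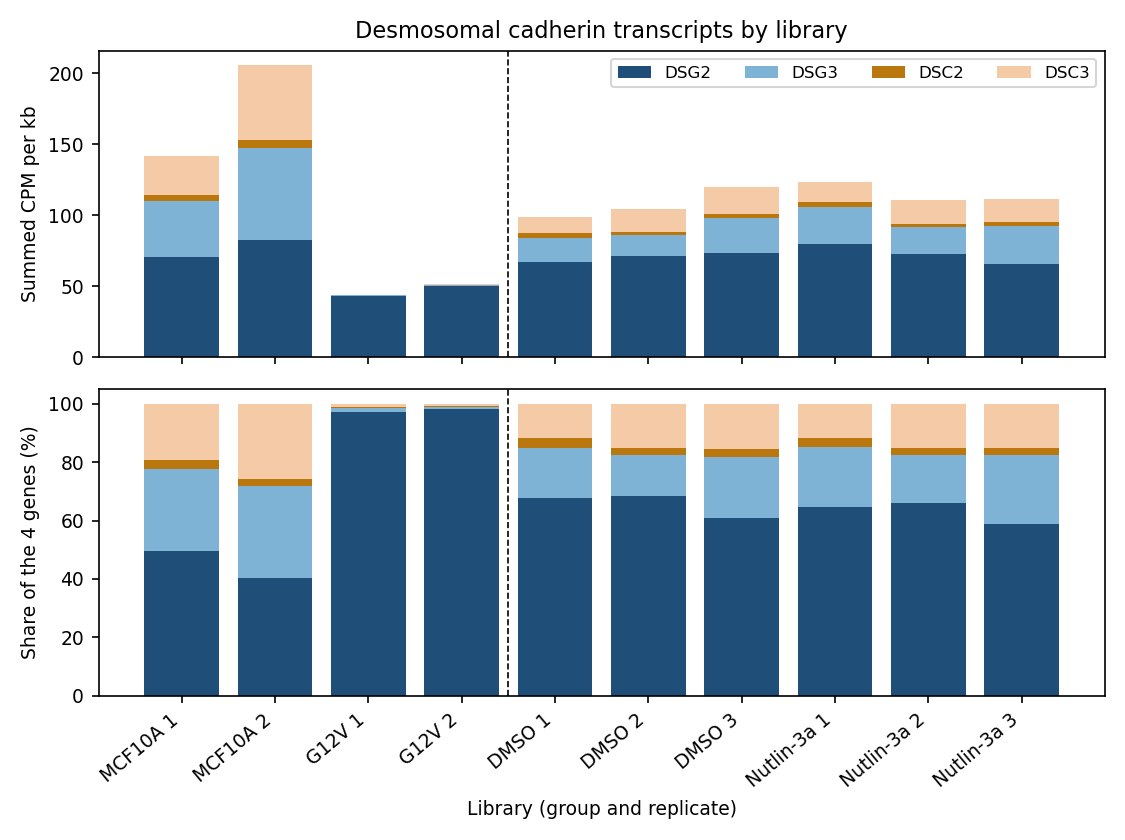
Upper panel, summed level of DSG2, DSG3, DSC2 and DSC3 in CPM per kb of transcript in each library. Lower panel, the share of each gene in that sum, in percent. DSG2 fills 97.1% and 98.1% of the G12V bars and 59.0% to 68.5% of the bars of the DMSO and Nutlin-3a libraries, and the dashed line parts the libraries of the separately annotated tables.

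The desmosomal cadherin genes sit side by side on chromosome 18, from 28569331 to 29128814, a stretch of 559 kb that also holds DSC1, DSG1 and DSG4. Among the 15 genes of the table in this stretch and within 500 kb of it, 8 were tested and 4 were DE. These were DSC3, DSC2 and DSG3, genes of the set already given above, and B4GALT6. Over all genes tested, 11.0% were DE. DSC1 was close to the limit of detection, with 8 and 15 counts in MCF10A and 17 and 10 in G12V libraries, and its log2 fold change of 0.19 had a 95% interval from -1.12 to 1.5. DSG1 had at most 2 counts in a library and DSG4 at most 1. Beyond DSG2, the next tested gene, B4GALT6, a galactosyltransferase, rose from 374 and 297 counts to 1430 and 1408, by 2.04 on the log2 scale (adjusted p = 0.0053, SE 0.22, edgeR). TRAPPC8 and RNF125, at the far end, had log2 fold changes of 0.05 (95% interval -0.40 to 0.50) and -0.05 (-0.66 to 0.55). DSCAS, DSG1-AS1, DSG2-AS1, TTR and SLC25A52 had too few counts to test. DSG2-AS1, which overlaps DSG2 on the other strand, had 2 to 12 counts, beside 5702 to 10715 counts of DSG2.

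**Figure D4:**
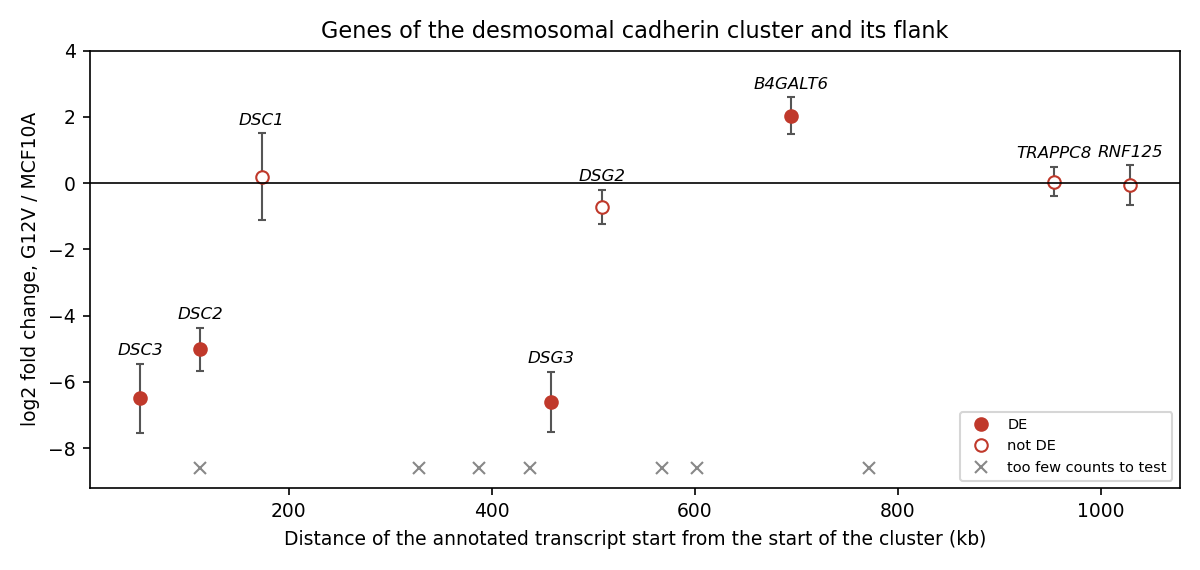
Log2 fold change with its 95% interval for genes of the desmosomal cadherin stretch and its flank, against the distance of the annotated transcript start from the start of the stretch, in kb. DSC3, DSC2 and DSG3 lie between -6.59 and -5.02, DSG2, the last cadherin gene of the stretch, is at -0.72 and B4GALT6, beyond it, at 2.04, and crosses mark genes with too few counts.

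Of 9 further desmosomal genes outside the set, 7 were tested and 2 were DE, PPL (periplakin, log2 fold change -2.84, adjusted p = 0.014, edgeR) and CDSN (corneodesmosin, -2.12, adjusted p = 0.035), both lower. PPL had 3060 and 6855 counts in MCF10A and 542 and 857 in G12V libraries, and CDSN 33 and 40 against 7 and 10. PPL averaged 30.7 CPM in G12V cells, but also only 23.0 ± 8.57 CPM (SD, n = 3) in DMSO-treated MCF10A cells, counted on another annotation. The cause of that low level was not tested. CDSN was not DE with DESeq2 (adjusted p = 0.054) or without any 1 of the 4 libraries (adjusted p from 0.054 to 0.171, edgeR). The median of this list was -0.38, with PKP4 at -0.38 (95% interval -0.80 to 0.03) and the plakin EVPL at 0.13 (-0.35 to 0.60).

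Keratins, the filaments that desmosomes hold, were in part strongly lower. Of 12 tested keratins of 13 listed, 7 fell (KRT5, KRT6A, KRT6B, KRT14, KRT15, KRT16 and KRT17), 1 rose (KRT80, by 4.00 on the log2 scale) and 4 were not DE, with a list median of -2.76. KRT14, a keratin of basal cells, had 8848 and 9593 counts in MCF10A libraries and 2 and 3 in G12V libraries. Its partner KRT5 fell by 1.96 on the log2 scale, to 1078 ± 201 CPM (SD, n = 2) in G12V cells. The simple-epithelium keratins KRT8 and KRT18 had log2 fold changes of 0.18 (95% interval -0.32 to 0.69) and -0.71 (-1.17 to -0.25) and were not DE, and KRT19 had at most 5 counts.

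Of 15 listed regulators of epithelial junction genes 13 were tested, 7 fell and 2 rose, with a median of -1.27. TP63, which encodes p63, the master factor of stratified epithelium, had 2627 and 4854 counts in the MCF10A libraries and 5 and 2 in the G12V libraries. GRHL3 (461 and 418 counts against 9 and 9) and the splicing factor ESRP1 (1575 and 2603 against 3 and 7) were likewise low in both G12V libraries. OVOL2, KLF5 and KLF4 fell by 3.95, 1.51 and 1.27 on the log2 scale, and SNAI2, a repressor of the Snail family, by 2.49. ZEB1 and ZEB2, repressors of epithelial genes, rose by 2.98 (adjusted p = 0.0045, SE 0.31, edgeR) and 1.97 (adjusted p = 0.0078, SE 0.25, edgeR). GRHL2 had 0 counts in each library and OVOL1 at most 10.

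Neighbouring junctions gave the following counts. Among 10 genes of the adherens junction 3 were DE and lower, with a median of -0.59: the cadherins CDH1 (4390 and 5406 counts against 10 and 12) and CDH3 (7324 and 9046 against 56 and 139), and NECTIN1 (log2 fold change -2.59). The catenins CTNNA1, CTNNB1 and CTNND1 were not DE, at -0.25, -0.58 and -0.69. CTNND1 had only 145 and 164 counts in MCF10A and 86 and 109 in G12V libraries. In the Nutlin-3a experiment, counted on another annotation, it had 3622 to 4688. The cause of this difference was not tested. Of the hemidesmosome, which anchors keratins to the basement membrane, ITGA6 and COL17A1 were DE and lower, by log2 fold changes of -1.93 and -8.48. Of 10 genes that act on desmosome assembly or shedding 2 were DE, PRKCA, a kinase that loosens desmosomes, which rose by 1.58, and TGM1, a transglutaminase, which fell by 4.28. Without MCF10A replicate 1 none of the genes of these lists was DE.

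To ask whether activation of p53 relates to desmosome genes, Nutlin-3a was compared with DMSO in MCF10A cells. No desmosome gene was DE after 4 h, PERP included, while CDKN1A rose from 654 ± 26.7 to 2916 ± 375 CPM (SD, n = 3) in the same libraries. Log2 fold changes of the 9 tested genes ran from -0.16 for PKP2 to 0.33 for DSG3, with a median of 0.02, where the median over all 13529 genes tested was 0.0066. Of all tested genes 0.170% were DE. The count of DE desmosome genes was 0 with edgeR's quasi-likelihood test, edgeR's exact test and DESeq2, and 0 had an unadjusted p under 0.05 in any of these tests. Values of the groups overlapped for 9 of the 9 genes, and were apart for 8.07% of all genes tested. The 95% intervals of the 9 log2 fold changes lay between -0.60 and 0.83.

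PERP had 633, 581 and 802 CPM in the DMSO libraries and 593, 623 and 825 CPM in the Nutlin-3a libraries. Replicate 3 was the highest in either group and the groups covered the same range, with a log2 fold change of 0.02 (SE 0.17, 95% interval -0.37 to 0.41). DSG3, one of the genes with a p53 half-site decamer in its window, had 93.1, 80.4 and 138 CPM with DMSO and 142, 103 and 147 CPM with Nutlin-3a. It was higher with Nutlin-3a in 3 of 3 pairs of libraries with the same number, but the groups overlapped, and the log2 fold change was 0.33 (SE 0.22, 95% interval -0.16 to 0.83). With the replicate number as a block in edgeR the unadjusted p was 0.0035 and the adjusted p 0.110. DSC3, the other, had 86.8, 120 and 140 CPM against 109, 127 and 127 CPM, a log2 fold change of 0.07 (95% interval -0.32 to 0.46).

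The other cadherins were also within the spread of the libraries. DSG2 had 382, 407 and 416 CPM with DMSO and 455, 415 and 376 CPM with Nutlin-3a, a log2 fold change of 0.05 (95% interval -0.20 to 0.30). DSC2 had 44.9, 32.7 and 41.8 CPM against 47.0, 30.2 and 34.3 CPM, with -0.10 (-0.53 to 0.33). Neither gene moved one way in each of the 3 pairs.

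Among the plaque genes, PKP2 had 77.4, 68.8 and 80.2 CPM with DMSO and 71.3, 59.7 and 72.2 CPM with Nutlin-3a. Its DMSO values were below the 167 and 328 CPM of the untreated MCF10A libraries, counted on another annotation. DSG3 (80.4 to 138 CPM against 220 and 362), DSC3 (86.8 to 140 against 207 and 401) and DSC2 also had lower DMSO values. DSP, DSG2, PKP3, JUP and PERP overlapped between these controls. Outside the set, TP63 averaged 22.3 CPM with DMSO and 167 CPM in untreated MCF10A libraries. The cause of these gaps was not tested. PKP2 was lower in 3 of 3 pairs, but its values overlapped between the groups and the log2 fold change of -0.16 had a 95% interval from -0.42 to 0.11. PKP3 had 217, 198 and 237 CPM against 197, 195 and 235 CPM, also lower in 3 of 3 pairs and with a log2 fold change of -0.06 (-0.33 to 0.22). DSP had 452, 588 and 733 CPM against 699, 585 and 588 CPM, and its log2 fold change was 0.08 (-0.33 to 0.49). PKP1 had 5, 0 and 0 counts with DMSO and 7, 0 and 2 with Nutlin-3a, too few to test.

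**Figure D5:**
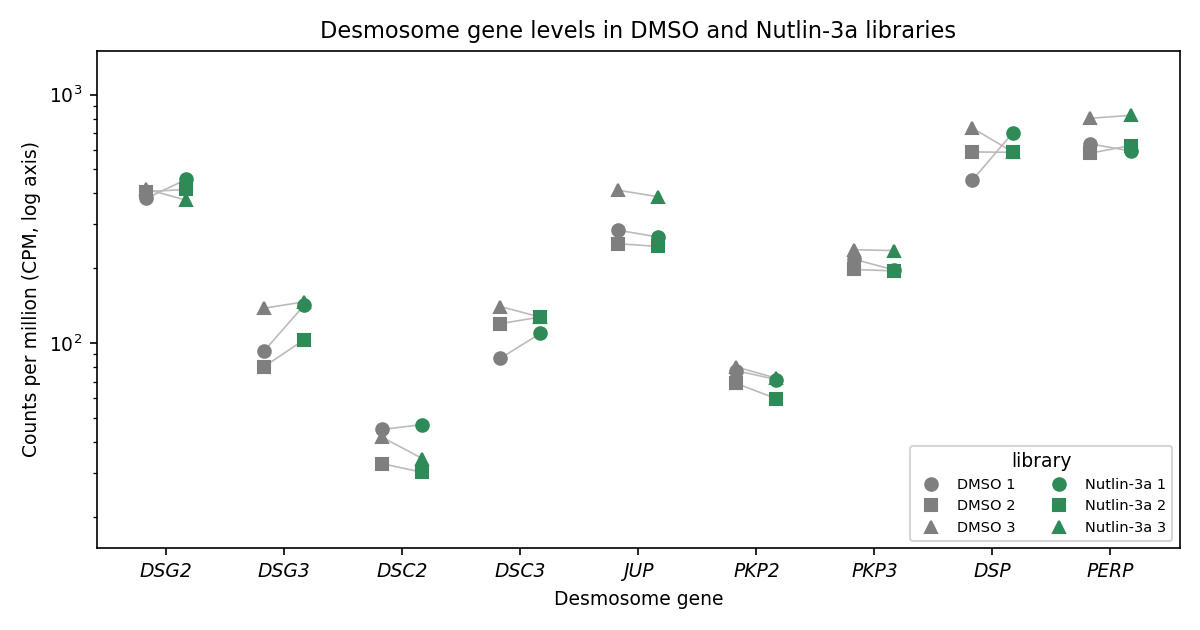
Level of the 9 tested desmosome genes in the 3 DMSO (grey) and 3 Nutlin-3a (green) libraries, in CPM on a log axis, with grey lines between libraries of the same replicate number. The symbols of both treatments overlap for each gene, and DSG3 rises along each of its 3 lines.

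JUP had 284, 251 and 412 CPM with DMSO and 267, 245 and 388 CPM with Nutlin-3a, lower in 3 of 3 pairs, with a log2 fold change of -0.07 (95% interval -0.60 to 0.45). Its row in this table spans 152 kb, against 32.1 kb in the untreated table, and overlaps other genes, among them KRT17 on the same strand. KRT17 had 2788, 2023 and 7606 counts with DMSO and 2487, 2611 and 7744 with Nutlin-3a, and was, like JUP, highest in replicate 3 of either group. The part of neighbouring genes in the JUP counts of this table was not tested.

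Within-library ratios overlapped between the treatments. The log2 ratio of DSG2 to DSG3 was 1.99 ± 0.38 (SD, n = 3) with DMSO and 1.68 ± 0.32 with Nutlin-3a, and 4 ratios gave two-sided exact permutation p-values from 0.40 to 0.70, where 0.1 is the smallest that 3 against 3 libraries allow. Within pairs of the same replicate number, DSG2 to DSG3 was lower with Nutlin-3a in 3 of 3, by differences of -0.36, -0.33 and -0.23 (mean -0.31 ± 0.066, SD). DSC2 to DSC3 was likewise lower in 3 of 3 pairs, by -0.27, -0.21 and -0.14 (mean -0.21 ± 0.062, SD). For both ratios the exact permutation of signs within pairs gave p = 0.25, the smallest that 3 pairs allow (0.50 adjusted over 4 ratios). By level per kb, PERP was the highest desmosome gene in both groups, at 160 ± 27.6 CPM per kb with DMSO and 162 ± 30.0 with Nutlin-3a (SD, n = 3), and its values did not overlap those of JUP, the next. JUP, PKP3, DSG2 and DSP followed with overlapping values between neighbours, then DSG3, PKP2 and DSC3, DSC2 and PKP1.

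In the lists around the desmosome, 1 gene was DE after Nutlin-3a, NECTIN4. This adhesion molecule of the adherens junction, listed under its older symbol PVRL4, had 39, 20 and 34 counts with DMSO and 240, 192 and 183 with Nutlin-3a, a log2 fold change of 2.84 (adjusted p = 0.0041, SE 0.25, edgeR). The remaining 9 tested genes of that list were not DE, and neither were the 12 tested keratins, the 13 regulators, the 10 genes of assembly and shedding or the 5 further desmosomal genes. TP63 had 445, 411 and 292 counts with DMSO and 348, 249 and 179 with Nutlin-3a, with a log2 fold change of -0.46 (95% interval -1.01 to 0.10). Neither of the 2 tested fibroblast markers was DE, and the 6 of 7 blood and endothelial markers with a row in this table summed to at most 0.20 CPM in any library.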

How the data were processed

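Poly(A) RNA of MCF10A, G12V, DMSO-treated and Nutlin-3a-treated cells was sequenced, and the authors aligned the reads to hg19 with TopHat2, deposited raw HTSeq counts per gene. Untreated libraries and the Nutlin-3a experiment are in separate tables with different annotations. The annotations, the strand setting and the treatment of overlapping genes are not given in the sources used here. Total counts per library ran from 15453226 to 23683975. From the counts, each table was fitted on its own with edgeR 4.0.16 (R 4.3.3): filterByExpr at its defaults, TMM normalization, the quasi-likelihood test with a prior count of 0.125, and Benjamini-Hochberg adjustment over all genes tested. CPM was computed on TMM-scaled library sizes, and divided by the length of the GENCODE canonical transcript where genes were compared with each other. Standard errors were taken as the size of the log2 fold change divided by the root of the F statistic. As in the methods of the study, a gene was DE when its adjusted p was below 0.05 and its log2 fold change exceeded 0.5 in size. The fit was also run on simulated counts with known changes, drawn from the means and fitted dispersions of these data. The recovery of those changes is not reported here. Ratios of 2 genes within a library were compared by a two-sided exact permutation test. Start positions of the untreated table were raised by 1, so that coordinates are 1-based.

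The desmosome genes and the lists around them were chosen with earlier results of these data known. Every desmosome gene is named, and of the other lists, the hemidesmosome apart, the DE genes, those too low to test and those a sentence is about. Older symbols were matched through RefSeq synonyms. Promoter sequences are RefSeq windows on GRCh38.p14. In the Nutlin-3a experiment, libraries of the same number deviated together from their group means (correlations of 0.62, 0.60 and 0.64), so that the numbers were taken to pair the libraries. The main fit and its intervals did not use this pairing. Alternatives tried were the exact test of edgeR, DESeq2 1.42.0, other scalings and filters, a prior count of 2, the replicate number as a block, no fold threshold and the omission of each library. Python 3.11.15 with pandas 2.3.3, scipy 1.17.1 and matplotlib 3.10.9 was used for summaries and figures. Counts over the hemidesmosome list are not reported here.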

Additional observations from a re-analysis of the deposited data

How the results depend on the processing

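In the comparison of G12V with MCF10A cells, 8 desmosome genes were DE under the other scalings and filters, a prior count of 2 and no fold threshold, and 9 with DESeq2, edgeR's exact test and the replicate block, which added DSG2. Leaving out single libraries gave 0 to 8 DE desmosome genes, and 0 to 2129 DE genes of all tested, where all libraries gave 1575. Each of these fits left 1 library in a group. Both counts of 0 came without MCF10A replicate 1, when the lowest adjusted p was 0.0502. The exact test called 2536 genes and the replicate block 4158. Same-numbered libraries of this comparison shared only a number, with a correlation of deviations of 0.49 over 2 pairs, so this block does not rest on a known pairing. No log2 fold change of a desmosome gene changed sign in G12V cells under any of these alternatives. In the Nutlin-3a experiment the count of DE desmosome genes was 0 under each alternative, while the DE genes of all tested, 23 with all libraries, were 91 with DESeq2, 84 with the exact test, 99 without a filter, 165 with the replicate block that pairs the libraries, and 7 to 11 when a library was left out. The blocked fit changed no call of a desmosome gene there. The causes of these shifts were not tested. At this depth PKP1 had too few counts to be tested after the filter.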
